A study of Mus musculus with 8 samples.

Results

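The genes described here are 41 mouse genes of glutathione metabolism, of the transcription factor NRF2 and its sensor KEAP1, and of the enzymes that remove superoxide, peroxides and electrophiles. They were taken as a fixed list of names. Of the 41 genes 35 were measured, out of 22180 genes in the table, because a probe set had to name exactly 1 gene and where a gene had several such probe sets the brightest on average was used. Prdx1, Gstm5, Tkt and Ftl1 lie on probe sets that name several genes, and Prdx6 and G6pdx matched no probe set by name, so these 6 were not analysed here. Keap1 was the 1 member chosen from more than 1 probe set.

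Expression was measured in 8 clonal cell lines from C57BL/6 mouse liver tumours, 1 Affymetrix array per line. All tumours were driven by c-Myc and NrasG12V from the pCaMIN vector in transformed hepatocytes, so both groups share these oncogenes and the vector. The 4 ICC lines, from intrahepatic cholangiocarcinoma, came from tumours made by focal electroporation of the liver in vivo. The 4 HCC lines, from hepatocellular carcinoma, came from tumours made by hydrodynamic injection into the tail vein, and the way of delivery and the tumour type cannot be told apart. Female lines by label are ICC9, ICC10, HCC2.1 and HCC2.4, and the male ones are ICC2.7, ICC2.9, HCC1 and HCC4. Cells were grown untreated in DMEM with 10% fetal calf serum at 7.5% CO2, the labels name no age for the mice, and each line is 1 clone. Lines may share a tumour or an animal, which the labels leave unsaid, and every p-value here reflects spread among these 8 lines alone.

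NRF2, encoded by Nfe2l2, is a transcription factor that KEAP1 holds in the cytoplasm and hands to a ubiquitin ligase for degradation. Oxidants and electrophiles modify KEAP1, after which NRF2 accumulates and, with small MAF proteins, binds antioxidant response elements in the promoters and enhancers of detoxification genes. Its targets make glutathione, keep it and thioredoxin reduced with NADPH, and join glutathione to foreign compounds. Hepatocytes carry high levels of glutathione, catalase and glutathione transferases, and liver cancers can switch the NRF2 pathway on by mutation.

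The core of the antioxidant response element, TGACNNNGC, was searched on both strands in the RefSeq promoter windows (GRCm38.p6, 250 bases before to 50 after each start). A match was found in 8 of the 29 measured members with a window, or 27.6%, against 14.0% of all 27025 genes with a window. A match describes letters and is not a shown site of binding. The stretches of 60 bases with a match before the start are given for the 6 measured members that have one, because these genes are among those whose values are set out by line or role. They read 5′ to 3′ on the strand of the gene, with the match in capitals.
Nfe2l2, chr2:75704854-75704913, minus strand: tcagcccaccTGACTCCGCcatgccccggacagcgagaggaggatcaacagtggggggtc
Gclm, chr3:122245397-122245456, plus strand: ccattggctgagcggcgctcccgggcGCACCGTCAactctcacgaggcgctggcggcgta
Txnrd1, chr10:82859088-82859147, plus strand: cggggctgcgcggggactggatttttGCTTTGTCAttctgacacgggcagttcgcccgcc
Mgst1, chr6:138140445-138140504, plus strand: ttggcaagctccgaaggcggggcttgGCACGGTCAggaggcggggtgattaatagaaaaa
Sod1, chr16:90220680-90220739, plus strand: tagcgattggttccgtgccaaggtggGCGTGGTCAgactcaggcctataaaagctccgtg
Gsta3, chr1:21240438-21240497, plus strand: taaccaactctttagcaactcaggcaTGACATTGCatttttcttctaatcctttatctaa
In Nfe2l2 and Gsta3 the match lies on the strand of the gene and in the other 4 on the opposite strand. Srxn1 and Pgd have their match after the start.

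Array medians lay between 5.02 and 5.09 log2 units. The 8 columns of values span 7 directions: the last singular value over genes was 0.430, against 26.5 for the one before it, and the missing direction lay mainly along ICC9 (weight 0.78) against ICC10 (-0.54). The values of ICC9 are therefore nearly a weighted sum of the other lines, and calls that change without ICC9 are given without it. Whether a direction was removed before deposit is not known here, and this would bear on the spread between lines and so on every p-value. Xist measured 11.26 to 11.59 in female-labelled and 4.02 to 4.64 in male-labelled lines, and the Y-linked genes Kdm5d, Uty and Eif2s3y were higher in every male-labelled line. Above the median gene level of 5.66 lay 1 of 8 hepatocyte markers, 3 of 5 bile duct markers, 1 of 6 leukocyte markers, 0 of 5 endothelial markers and 3 of 6 stellate cell and fibroblast markers. Line means of the hepatocyte list ran from 4.76 to 5.01 in ICC and 4.80 to 5.62 in HCC lines. Those of the bile duct list ran from 6.36 to 7.08 in ICC and 6.11 to 6.81 in HCC lines, and overlapped between types. Those of the stellate cell and fibroblast list ran from 5.59 to 6.76 in ICC and 5.56 to 6.12 in HCC lines.

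Between the tumour types no antioxidant gene was called. So few genes were called at all that this count says little about the members. By limma's test over all genes 0 of 35 members passed an adjusted p of 0.05 between ICC and HCC, where 0.261% of all genes did. At an unadjusted p under 0.05 stood 7 of 35, 5 of them with the higher mean in ICC, against 14.1% of all genes (7.06% with the higher mean in ICC, 7.04% with the lower). Without ICC2.9, HCC1 or HCC2.1 the 7 became 4, against 11.9%, 13.7% and 12.4% of all genes. The main test treats lines of one type and sex as independent. With a random block for such lines, or with them averaged, the 7 became 2, against 7.83% and 5.28% of all genes. The ICC and HCC lines did not overlap for 2 of 35 members, Nfe2l2 and Gclc, or 5.71%, against 8.63% of all genes. Both were higher in ICC, as in 4.19% of all genes, with 4.44% lower in ICC. The median difference was 0.12 log2 units over the members and 0.00 over all genes, and 19 of 35 members, or 54.3%, had a positive difference, against 50.3% of all genes. The mean over the 35 members was 8.31, 8.29, 8.27 and 8.47 in ICC9, ICC10, ICC2.7 and ICC2.9, and 8.33, 8.13, 8.24 and 8.27 in HCC1, HCC4, HCC2.1 and HCC2.4. These line means overlap between types. The mean difference of 0.10 became 0.05 without ICC2.9 and 0.06 without HCC4.

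**Figure D1:**
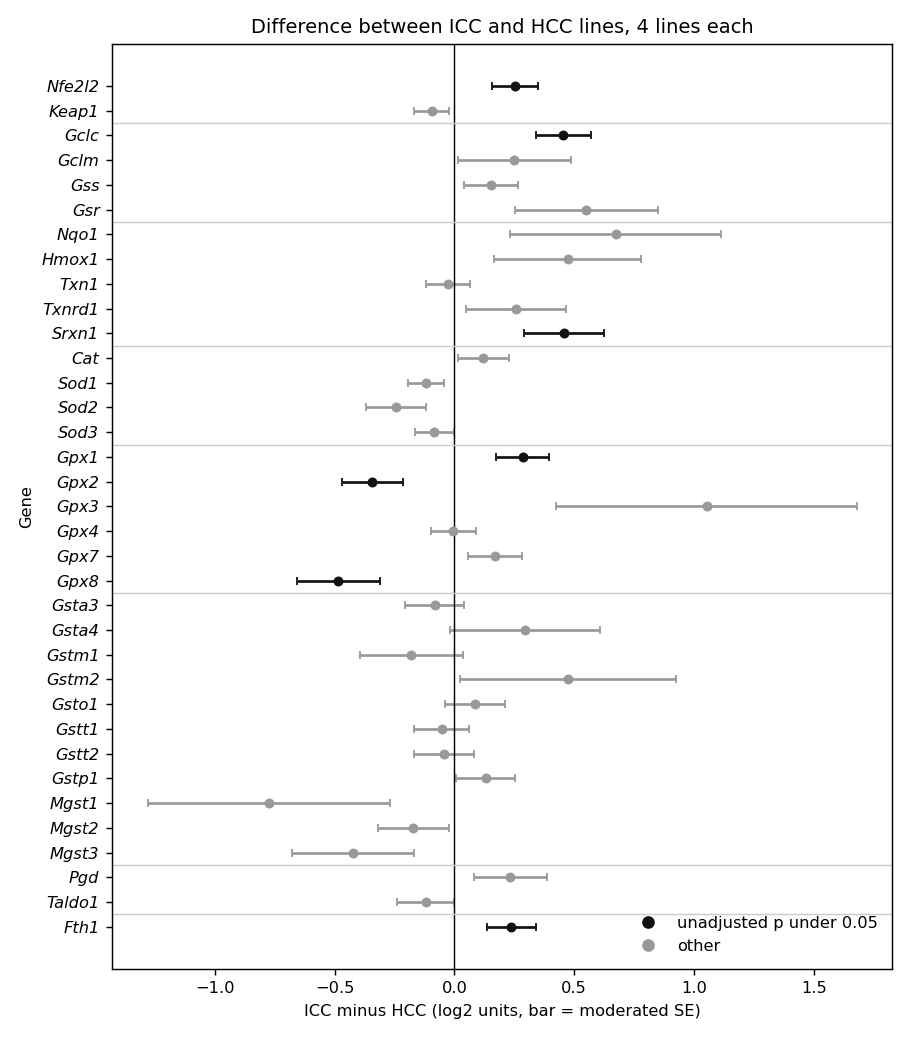
Difference between ICC and HCC lines for each of the 35 genes in log2 units, with the moderated standard error as bar, 4 lines a type and grey rules between role groups. Black points have an unadjusted p under 0.05; none of the 35 passed after adjustment, and Gpx3 at 1.05 has both the largest difference and the widest bar.

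Of the regulators, Nfe2l2 had a range over the lines of 0.54, close to the median of 0.57 over all genes, and Keap1 had a narrower one. Nfe2l2 measured 11.02, 10.98, 11.13 and 11.17 log2 units in ICC9, ICC10, ICC2.7 and ICC2.9, and 10.97, 10.63, 10.82 and 10.87 in HCC1, HCC4, HCC2.1 and HCC2.4. Every ICC line lay above every HCC line, but ICC10 and HCC1 were 0.01 apart at 10.98 and 10.97. The difference of 0.25 (SE 0.10, unadjusted p = 0.0286, limma adjusted p = 0.295) corresponds to 1.19-fold. Keap1, the inhibitor, measured 7.88, 7.85, 7.82 and 7.82 in the ICC lines and 7.86, 7.92, 8.0 and 7.97 in the HCC lines, listed in the same order. HCC1 lay inside the range of the ICC lines, and the difference was -0.10 (SE 0.07, limma adjusted p = 0.600). With a range of 0.18 over all 8 lines Keap1 varied least of the 35 members, and with the mean of its probe sets in place of the brightest the difference was -0.155.

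All 4 genes of glutathione synthesis and recycling had a higher mean in ICC, and 0 of 4 passed over all genes. Gclc, the catalytic subunit of glutamate-cysteine ligase, which sets the rate of glutathione synthesis, measured 9.26, 9.29, 9.24 and 9.62 in the ICC lines and 9.07, 8.95, 8.74 and 8.83 in the HCC lines. The types did not overlap, and 0.17 log2 units separated ICC2.7 at 9.24 from HCC1 at 9.07. The means were 9.35 ± 0.18 and 8.90 ± 0.14 (SD, n = 4 each), a 1.37-fold difference with the smallest p of the 35 members (unadjusted 0.00365, limma adjusted 0.146). Over the alternatives tried the adjusted p of Gclc ran from 0.0566 to 0.921. Gclm, the modifier subunit of the same enzyme, was spread within both types, at 8.75 in ICC2.7 and 9.50 in ICC2.9, and at 8.47 in HCC4 and 9.38 in HCC2.4. Gss, which adds glycine in the second step, ranged from 7.52 to 7.97 over the 8 lines.

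Gsr, the reductase that returns oxidised glutathione to its reduced form with NADPH, split the HCC lines. It measured 10.04, 9.86, 9.36 and 9.62 in the ICC lines, and 8.87, 8.41, 9.69 and 9.71 in HCC1, HCC4, HCC2.1 and HCC2.4. The low values were those of HCC1 and HCC4, the male-labelled HCC lines, and HCC2.1 and HCC2.4 lay inside the ICC range. The difference between the types was 0.55 (SE 0.30, limma adjusted p = 0.446), and 0.30 without HCC4. The mean of the 4 genes of the group was 9.15, 9.07, 8.77 and 9.07 in the ICC lines and 8.54, 8.37, 8.85 and 8.91 in the HCC lines, with ICC2.7 below HCC2.1 and HCC2.4.

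Of the 5 measured genes for quinones, haem and thioredoxin, 4 had their highest value in ICC2.9, and Txn1 had it in HCC1. Nqo1, a quinone reductase and a standard readout of NRF2 activity, measured 5.10, 4.5, 5.23 and 6.91 in the ICC lines and 4.64, 4.55, 4.87 and 4.99 in the HCC lines. ICC2.9 stood 1.68 log2 units above the next line, ICC2.7, and the other 3 ICC lines spanned the HCC range. Its mean lay below the median gene level, and the type difference of 0.67 (SE 0.44, limma adjusted p = 0.534) was 0.18 without ICC2.9. Hmox1, which opens the haem ring, measured 8.83, 8.93, 8.60 and 9.93 in the ICC lines and 9.21, 8.48, 8.21 and 8.50 in the HCC lines, with HCC1 next to ICC2.9. Hmox1 was chosen for this account after its values were seen.

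Srxn1, the sulfiredoxin that repairs overoxidised peroxiredoxins, measured 8.30, 8.33, 8.02 and 8.83 in the ICC lines and 8.10, 7.87, 7.74 and 7.94 in the HCC lines. ICC2.7 lay below HCC1, and the difference of 0.46 (SE 0.17) had an unadjusted p of 0.0227 and a limma adjusted p of 0.270, and it was 0.30 without ICC2.9. Txnrd1, the cytosolic thioredoxin reductase, ranged from 10.28 in HCC4 to 11.32 in ICC2.9. Its substrate thioredoxin, Txn1, varied by 0.30 over the 8 lines and differed between types by -0.03 (SE 0.09). For the 5 measured genes of this group the type difference in the mean was 0.37, and 0.14 without ICC2.9.

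Genes for removal of superoxide and hydrogen peroxide had ranges over the lines from 0.22 to 0.55 log2 units, where the median over all genes was 0.57. Cat, the peroxisomal catalase, ranged from 11.28 to 11.74, and Sod1, the cytosolic superoxide dismutase, from 11.33 to 11.56. Sod2, the mitochondrial enzyme, measured 9.91, 10.10, 9.94 and 9.93 in the ICC lines and 10.46, 10.38, 9.96 and 10.06 in the HCC lines. The 2 high values were those of HCC1 and HCC4, and the difference was -0.25 (SE 0.13, limma adjusted p = 0.421). Sod3, the extracellular enzyme, stayed between 4.90 and 5.12, below the median gene level. None of these 4 genes had an unadjusted p under 0.05 for type.

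**Figure D2:**
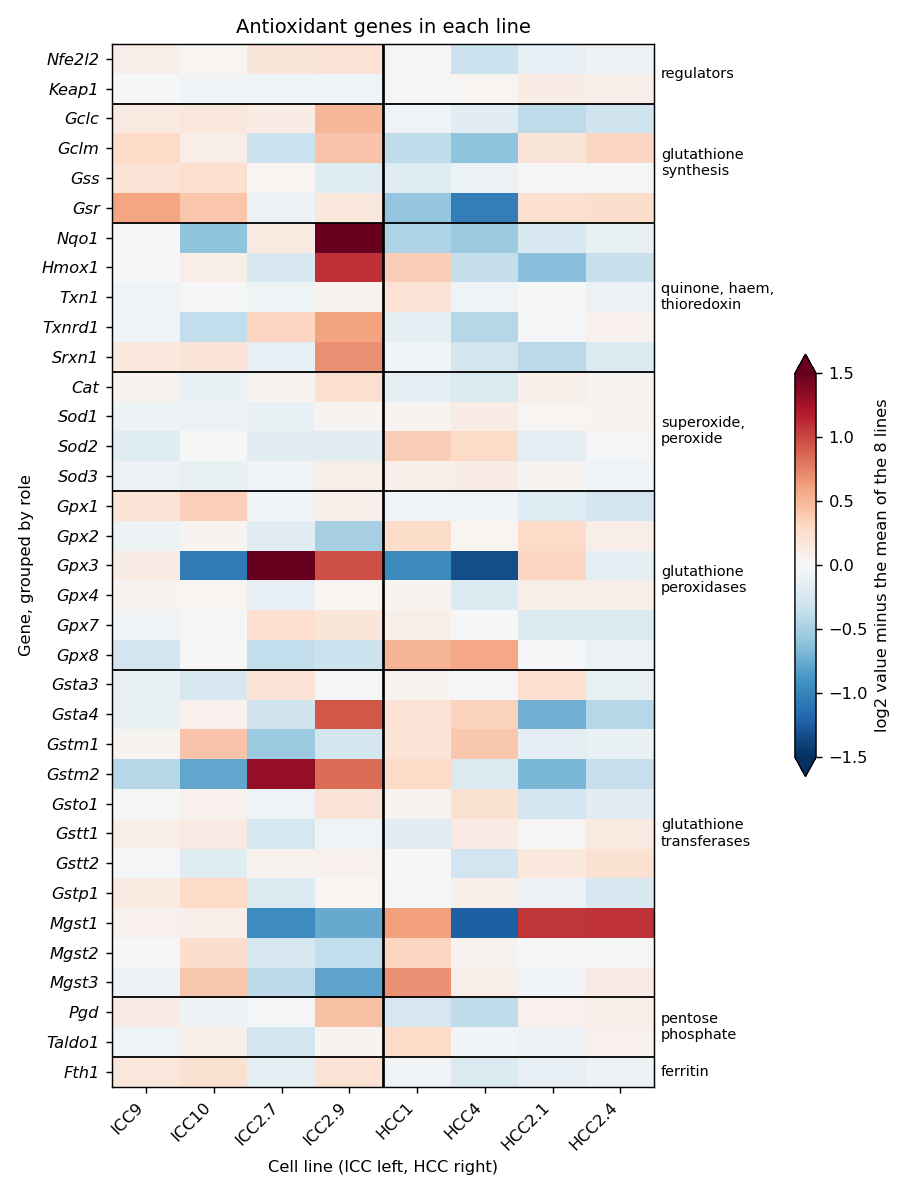
Log2 value of each of the 35 genes minus its mean over the 8 lines, with ICC lines on the left, HCC lines on the right and black rules between role groups. The colour scale ends at -1.5 and 1.5. ICC2.9 is darkest red in Nqo1, Hmox1 and Gpx3, and HCC4 is blue in Gsr, Gpx3 and Mgst1. Gpx3, Gstm2 and Mgst1 change colour within each type.

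Of 6 glutathione peroxidases 3 had an unadjusted p under 0.05, against 14.1% of all genes, and 0 passed after adjustment. Type differences were positive in 3 and negative in 3. Gpx1, the abundant cytosolic selenoenzyme, measured 10.07, 10.23, 9.80 and 9.95 in the ICC lines and 9.82, 9.81, 9.68 and 9.60 in the HCC lines. ICC2.7 lay just below HCC1 and HCC4, and the difference was 0.29 (SE 0.11, limma adjusted p = 0.297). Gpx8, a peroxidase of the endoplasmic reticulum, measured 10.47, 10.76, 10.39 and 10.43 in the ICC lines and 11.27, 11.33, 10.72 and 10.67 in the HCC lines. As with Sod2, the high values were those of HCC1 and HCC4, and ICC10 overlapped with HCC2.1 and HCC2.4 (difference -0.485, SE 0.17, limma adjusted p = 0.263). Gpx2, the gastrointestinal form, differed by -0.34 (SE 0.13, unadjusted p = 0.0262, limma adjusted p = 0.285), at 3.18, 3.30, 3.09 and 2.76 in the ICC lines and 3.53, 3.28, 3.54 and 3.35 in the HCC lines. All 8 values of Gpx2 lay far below the median gene level, where signal over background was not assessed.

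Gpx3, the secreted plasma peroxidase, had the largest range of the 35 members. It measured 6.26, 5.10, 8.21 and 7.11 in ICC9, ICC10, ICC2.7 and ICC2.9, and 5.19, 4.81, 6.47 and 6.00 in HCC1, HCC4, HCC2.1 and HCC2.4. The male-labelled ICC lines were high and the male-labelled HCC lines low, and ICC10 lay below HCC1. The range of 3.40 log2 units left a type difference of 1.05 (SE 0.63, 2.07-fold) short of the threshold (limma adjusted p = 0.491), and without ICC2.7 it was 0.54. ICC2.7 and ICC2.9 were also the highest lines for the fibroblast genes Col1a1 (9.82 and 8.19, others 6.41 to 7.18) and Pdgfrb (10.55 and 9.89, others 6.66 to 8.41). Acta2 was highest there too (7.16 and 6.88, others 6.09 to 6.46), Des was highest in HCC1, Lrat and Dcn stayed between 4.42 and 4.65 and between 3.11 and 3.39 in all lines, and the part of these genes in the result was not tested. Gpx4, which reduces lipid peroxides and blocks ferroptosis, was level, at 8.12 ± 0.08 in ICC and 8.13 ± 0.14 in HCC lines (SD, n = 4 each), a difference of -0.01 (SE 0.09). Gpx7, another peroxidase of the endoplasmic reticulum, ranged from 5.54 to 6.01.

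Of 11 measured glutathione transferases 0 had an unadjusted p under 0.05 for type, and several differed widely within types. Gstm2, a cytosolic mu-class enzyme, measured 4.83, 4.48, 6.58 and 6.10 in the ICC lines and 5.56, 5.05, 4.57 and 4.92 in the HCC lines. ICC2.7 and ICC2.9 were the highest of all lines and ICC10 the lowest, so the difference of 0.47 (SE 0.45, limma adjusted p = 0.685) did not exceed the spread. It was 0.11 without ICC2.7, 0.27 without ICC2.9 and 0.81 without ICC10. The fibroblast genes Col1a1 and Pdgfrb were highest in ICC2.7 and ICC2.9 too, as given for Gpx3. Gstm2 and Gstm1 are close paralogs, and probes may not tell them apart fully. Gstm1 ranged from 7.52 in ICC2.7 to 8.50 in ICC10, the reverse order of these lines in Gstm2.

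Mgst1, a transferase and peroxidase of the endoplasmic reticulum and mitochondrial membranes, measured 7.0, 7.01, 5.99 and 6.17 in the ICC lines and 7.55, 5.71, 8.0 and 8.01 in the HCC lines. HCC4 was the lowest line and HCC2.1 and HCC2.4 the highest. The type difference was -0.78 (SE 0.51, limma adjusted p = 0.534). Among female-labelled lines, 2 a type, it was -1.0 with a limma adjusted p of 0.0192, the 1 member of 35 called there, where 3.14% of all genes were called. This call rests on ICC9 and ICC10 at 7.0 and 7.01, and on HCC2.1 and HCC2.4 at 8.0 and 8.01. Lines of such a pair may be related, and no fit of the female-labelled lines was run without ICC9. Over both sexes without HCC4 the type difference was -1.31 (limma adjusted p = 0.128). The hepatocyte markers Apob, at 8.8 and 8.79, and Hnf4a, at 7.26 and 7.06, were also highest in HCC2.1 and HCC2.4. The other lines had 3.69 to 5.34 and 5.32 to 5.92. The rest of the list did not follow them. Alb was highest in ICC2.9 and Apoa1 and Ttr in HCC1. Cps1 was highest and Tat lowest in HCC2.4, and Cyp2e1 was lowest in HCC2.1 and HCC2.4 (4.53 and 4.51). The part of these markers in the result was not tested. Mgst3, a related microsomal enzyme, ranged from 7.40 in ICC2.9 to 8.87 in HCC1, and Mgst2 from 7.59 in ICC2.9 to 8.28 in HCC1.

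Gsta4, the alpha-class enzyme for the lipid peroxidation product 4-hydroxynonenal, again had its highest value in ICC2.9, at 9.59, with the other lines from 7.94 to 9.0. Gstp1, the pi-class enzyme, stayed between 11.51 and 12.05, and its neighbour Gstp2 shares a probe set with it. Gsto1, the omega-class enzyme, ranged from 10.90 to 11.41. Gsta3, Gstt1 and Gstt2 lay below the median gene level in their means, with ranges of 0.50, 0.40 and 0.52. Of the 11 transferases 4 had a positive type difference and 7 a negative one.

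NADPH for these enzymes comes in part from the pentose phosphate pathway. Pgd, its second NADPH-producing dehydrogenase, ranged from 10.38 in HCC4 to 11.20 in ICC2.9 and differed between types by 0.23 (SE 0.15, limma adjusted p = 0.536). Taldo1, of the non-oxidative branch, differed by -0.12 (SE 0.12). Fth1, the ferritin heavy chain that stores iron in a form that cannot drive radical chemistry, measured 13.13, 13.19, 12.82 and 13.18 in the ICC lines and 12.91, 12.74, 12.84 and 12.88 in the HCC lines. ICC2.7 lay among the HCC lines, and the difference was 0.24 (SE 0.10, unadjusted p = 0.0476, limma adjusted p = 0.348).

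**Figure D3:**
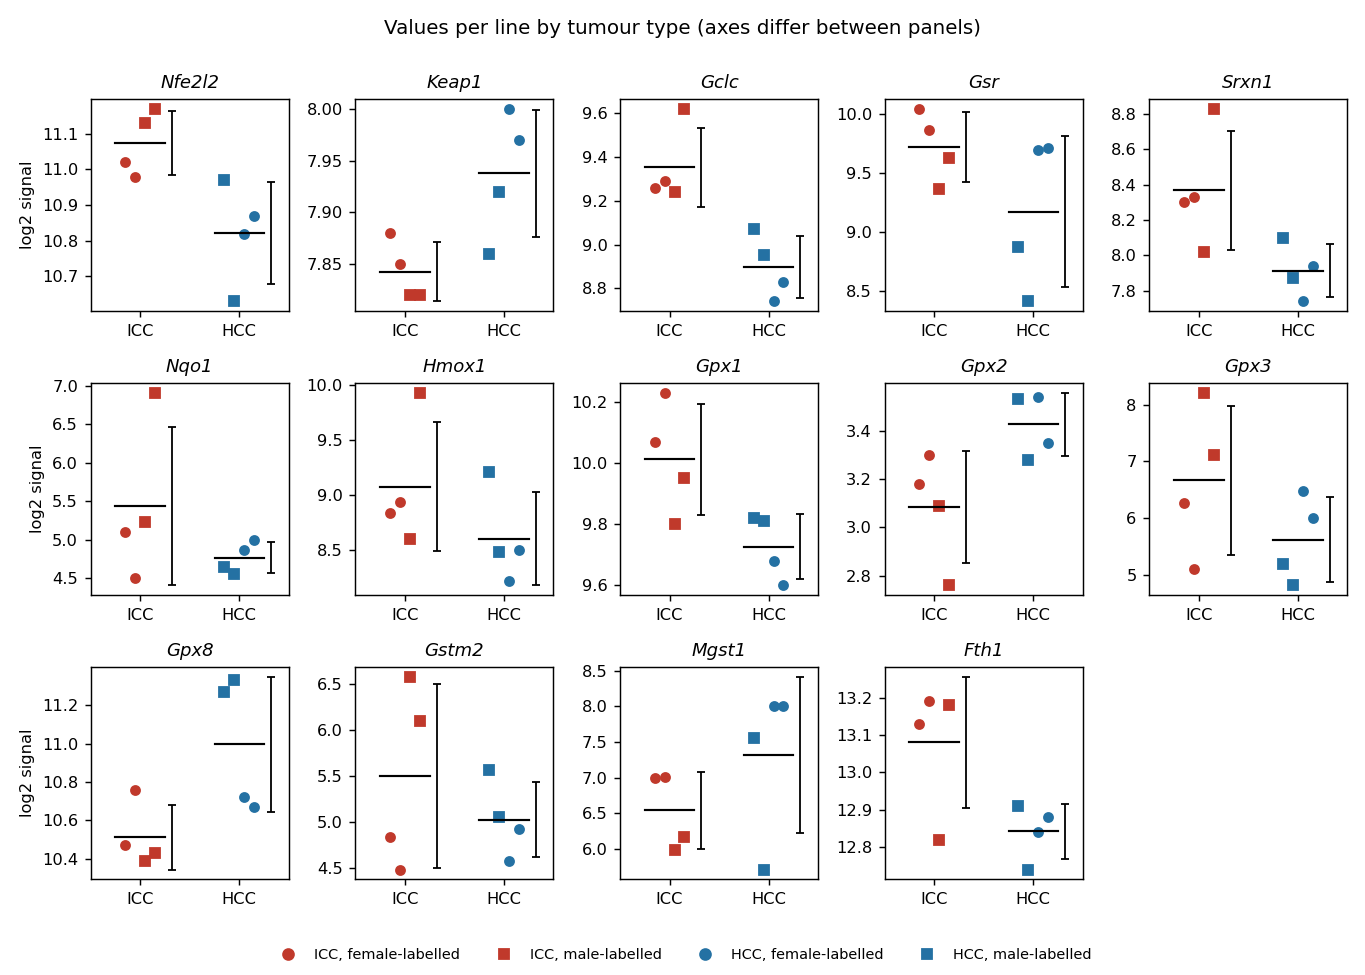
Log2 values of 14 genes in each line by tumour type, with circles for female-labelled and squares for male-labelled lines, a horizontal bar at the mean and a vertical bar of 1 SD over 4 lines. Nfe2l2 and Gclc do not overlap between types, ICC2.9 stands above the others in Nqo1 (6.91) and Hmox1 (9.93), and Gsr, Gpx8 and Mgst1 differ between HCC lines.

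Seen by line, ICC2.9 and HCC4 stood at opposite ends in the mean over members and in counts of extreme values. Against the mean of the other 7 lines, the median member was lowest in ICC2.7 (-0.10), then in HCC4 (-0.08). Members above that mean numbered 24 in ICC2.9, 23 in ICC10, 14 in HCC4 and 11 in ICC2.7. ICC2.9 had the highest value of the 8 lines in 10 of 35 members, or 28.6%, against 14.0% of all genes. The 10 were Nfe2l2, Gclc, Gclm, Nqo1, Hmox1, Txnrd1, Srxn1, Cat, Gsta4 and Pgd. Among genes above the median level the count was 9 of 28, against 17.3%. Gsr, Txn1 and Mgst1 had their highest value in other lines, and ICC2.9 was the lowest line in 3 members, Gpx2, Mgst2 and Mgst3. Further genes of the pathway went both ways in ICC2.9, and these examples were picked after their values were seen. Slc7a11 (9.89), Sqstm1 (12.56), Me1 (9.32) and Cbr3 (4.90) were highest there. Nfe2l3 (5.56), Mafk (7.37), Abcc3 (5.19) and Selenos (8.24) were lowest there, and the NRF2 target Osgin1 was 8.04, below every HCC line. The lead of ICC2.9 over the next line was 1.68 in Nqo1, 0.72 in Hmox1, 0.59 in Gsta4 and 0.50 in Srxn1, but 0.04 in Nfe2l2. HCC4 had the lowest value in 11 of 35 members, or 31.4%, against 15.7% of all genes, and in 10 of 28 above the median level, against 19.4%. The 11 were Nfe2l2, Gclm, Gsr, Txnrd1, Cat, Gpx3, Gpx4, Gstt2, Mgst1, Pgd and Fth1. Nfe2l2, Gclm, Txnrd1, Cat and Pgd thus had their highest value in ICC2.9 and their lowest in HCC4. HCC4 was itself the highest line in 4 members, Sod1, Sod3, Gpx8 and Gsto1, or 11.4%, against 15.8% of all genes. These shares describe single arrays and have no replicate check.

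Variation within types was large for a few members. A range of at least 2 log2 units over the 8 lines was reached by 4 of 35, or 11.4%, namely Gpx3, Nqo1, Mgst1 and Gstm2, against 2.98% of all genes. Above the median level it was reached by 2 of 28, Gpx3 and Mgst1, against 4.88% of genes. The median range was 0.63 for the members and 0.57 for all genes. Between lines of one type and sex the members differed by 0.23 log2 units in the mean absolute difference. Lines of one type and different sex differed by 0.40 and lines of different types by 0.39. Over all genes the same distances were 0.20, 0.30 and 0.30. Lines of different types include pairs of one sex and of both.

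Gsr was the 1 member of 35, or 2.86%, called between female- and male-labelled lines with tumour type in the model, against 2.94% of all genes. It was higher in female-labelled lines by 0.76 (SE 0.16, limma adjusted p = 0.0485), with all 4 of them between 9.69 and 10.04 and the male-labelled lines between 8.41 and 9.62. The call is at the threshold. It was lost when the model held the missing direction (adjusted p = 0.110), after median centring (0.0587) and without any 1 of the 8 lines other than HCC4 (0.0506 to 0.159). At an unadjusted p under 0.05 stood 7 of 35 members, against 17.5% of all genes (9.03% higher and 8.44% lower in female-labelled lines). Without ICC9 or HCC1 the 7 became 4, against 10.5% and 17.3% of all genes. Of the 7, Gclm, Gss, Gsr and Mgst1 had the higher mean in female-labelled lines and Gpx7, Gsta4 and Gstm2 in male-labelled lines. Gstm2 differed by -1.12 (SE 0.26, limma adjusted p = 0.0654). Each type and sex holds 2 lines that may share a source, so sex and source cannot be told apart.

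Whether the type difference itself depended on labelled sex was tested by the interaction. The lines whose names begin with 2 after the type, ICC2.7, ICC2.9, HCC2.1 and HCC2.4, are male in ICC and female in HCC, so this interaction is the same contrast as these 4 lines against the other 4. The 2 readings cannot be told apart. By limma 0 of 35 members passed after adjustment, as did 0 (0%) of all genes. At an unadjusted p under 0.05 stood 15 of 35, or 42.9%, against 20.1% of all genes. Of the 15, 7 had a positive interaction and 8 a negative one, against 9.33% and 10.8% of all genes. The share was 12 of 28 among genes above the median level, against 31.1%. Without ICC10 the 15 became 5, against 7.87% of all genes, and without HCC2.4 they became 9, against 15.6%. The ICC minus HCC difference of Gpx3 was -0.555 log2 units in female-labelled lines (means 5.68 and 6.24) and 2.66 in male-labelled lines (means 7.66 and 5.0). Its interaction had an unadjusted p of 0.00137 and an adjusted p of 0.113, which was 0.0471 once the missing direction was modelled and 0.0495 without ICC9, with up to 0.363 in other alternatives. The same difference of Gstm1, Mgst3 and Gpx8 was -0.72, -0.98 and -0.89 in male-labelled lines and 0.36, 0.13 and -0.08 in female-labelled lines. For Nqo1, Gstm2 and Gsr it was 1.475, 1.035 and 0.85 in male-labelled lines and -0.13, -0.09 and 0.25 in female-labelled lines, and for Gpx1 0.06 and 0.51.

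**Figure D4:**
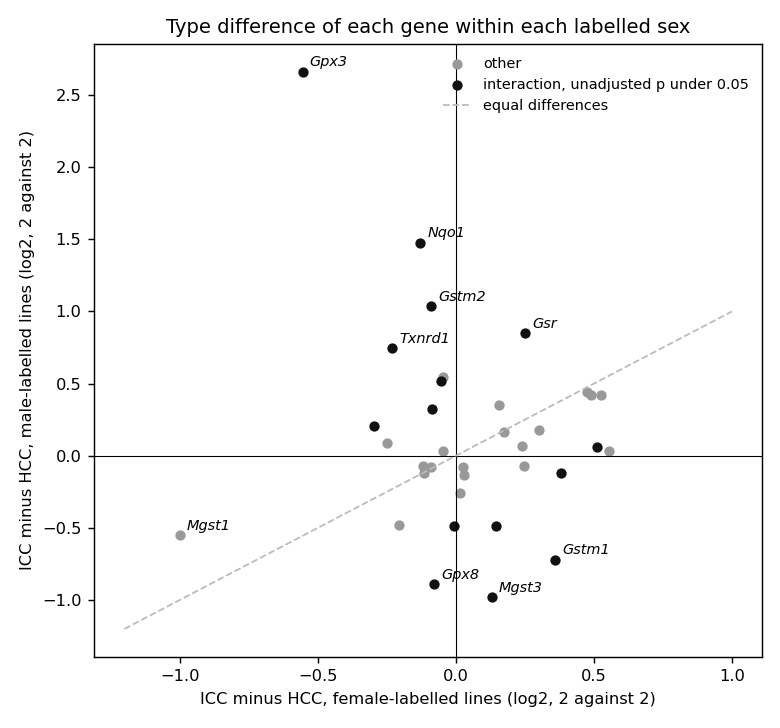
ICC minus HCC difference of each of the 35 genes in male-labelled lines (vertical, log2) against that in female-labelled lines (horizontal, log2), 2 lines against 2 in each, with a dashed line where both are equal. Black points are the 15 genes with an unadjusted interaction p under 0.05; Gpx3 lies farthest from the line at -0.555 and 2.66.

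Of 88 further genes of the pathway 82 were measured, and 0 of 82 passed between ICC and HCC after adjustment (limma). With labelled sex as a covariate 5 passed, Abcc1, Abcc3, Nqo2, Osgin1 and Aifm2, where 1.93% of all genes and 0 of 35 members did. Abcc3 also passed with sex and the missing direction, where 0.537% of all genes did. Osgin1 and Me1 passed without HCC4, and Txnip, an inhibitor of thioredoxin, without HCC1, against 0.41% and 0.491% of all genes. At an unadjusted p under 0.05, 11 had the higher mean in ICC and 10 the lower, against 7.06% and 7.04% of all genes. Of the 8 with the smallest p, Abcc1, a pump that exports glutathione conjugates, measured 9.62, 9.60, 9.62 and 9.54 in the ICC lines and 9.16, 9.25, 9.30 and 9.18 in the HCC lines. The types were 0.24 apart at their nearest lines, with a difference of 0.37 (SE 0.07, limma adjusted p = 0.0833). Abcc3, a related pump, differed the other way by -1.62 (SE 0.42, limma adjusted p = 0.149), from 5.19 to 6.27 in ICC and 6.42 to 8.08 in HCC lines. Nfe2l3, a factor related to NRF2, differed by -0.49, Selenos, a selenoprotein of the endoplasmic reticulum, by -0.53, and Osgin1, an NRF2 target, by -1.32. Me1, the NADPH-producing malic enzyme, differed by 1.03, the quinone reductase Nqo2 by 0.57 and the methionine sulfoxide reductase Msra by 0.34. Their limma adjusted p lay between 0.091 and 0.169. Osgin1 in HCC4, at 8.58, lay among the ICC lines, while Me1, Nqo2, Msra, Nfe2l3 and Selenos did not overlap between types. Over all genes 8.63% did not overlap. The 8 were picked by their p for type, so their lack of overlap is no separate result.

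Between the sexes 7 of the 82 were called by limma, against 2.94% of all genes, and these were chosen for mention after their values were seen. Chac1, which degrades glutathione, was lower in female-labelled lines, with a difference of -1.575 (SE 0.20, adjusted p = 0.00758). It measured 7.22, 7.34, 6.96 and 7.16 in ICC9, ICC10, HCC2.1 and HCC2.4, and 9.05, 8.62, 9.12 and 8.19 in ICC2.7, ICC2.9, HCC1 and HCC4, without overlap. Slc3a2, the heavy chain of the cystine importer, differed by -0.59 (adjusted p = 0.0137) and the stress-induced sestrin Sesn2 by -1.13 (adjusted p = 0.0345). The peroxiredoxin Prdx4 differed by -0.62 (adjusted p = 0.00914) and the glutaredoxin Glrx5 by -0.45 (adjusted p = 0.0262). Higher in female-labelled lines were Abcc3, by 1.18 (adjusted p = 0.0064), and Aifm2, a ferroptosis suppressor, by 0.75 (adjusted p = 0.00771). Slc7a11, the light chain that carries cystine for glutathione synthesis, differed by -1.61 (SE 0.37) and was not called (adjusted p = 0.0652). HCC4, at 7.85, lay below ICC9 and ICC10 for Slc7a11, while HCC1 reached 9.74 and ICC2.9 reached 9.89. Without ICC9 the calls among the 82 came to 2, Chac1 and Abcc3, against 0.658% of all genes. Without HCC2.1 they came to 4, against 1.28%. Chac1 and Abcc3 were called in all 14 alternatives tried, Slc3a2 in 10, Glrx5 in 8 and Sesn2 in 7. All 14 treat lines of one type and sex as independent. The random block and the averaging of such lines were not run for sex, so these counts do not bear on related lines.

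**Figure D5:**
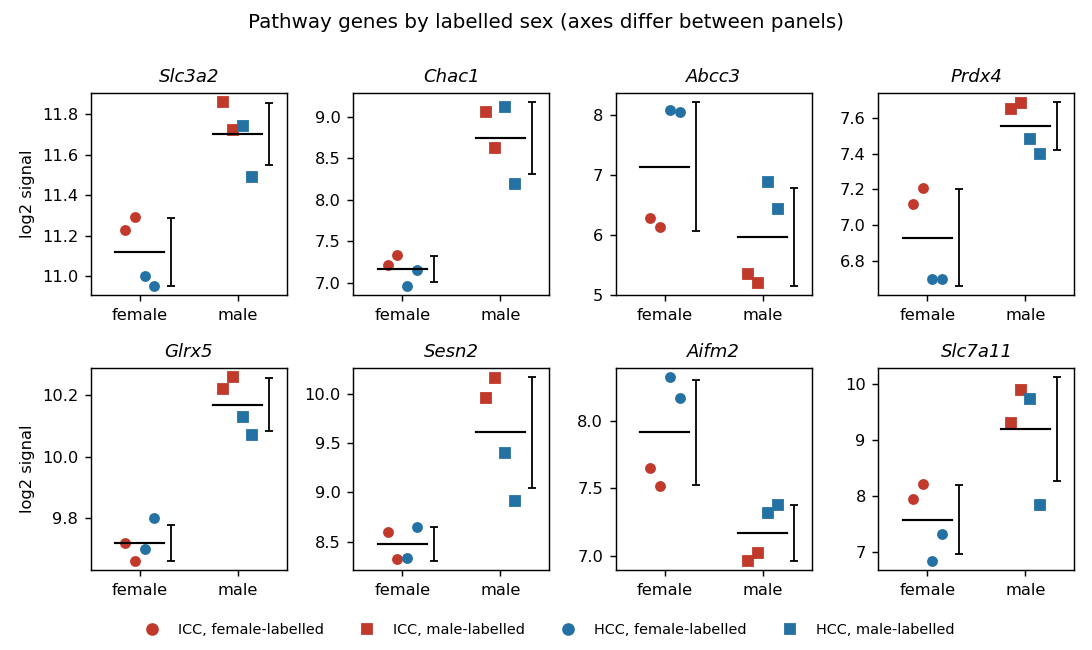
Log2 values of 8 pathway genes in each line by labelled sex, red for ICC and blue for HCC, with a horizontal bar at the mean and a vertical bar of 1 SD over 4 lines. Slc3a2, Chac1, Prdx4, Glrx5, Sesn2 and Aifm2 separate the sexes, while Abcc3 and Slc7a11 overlap between them.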

How the data were processed

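The deposited values are log2 signals per probe set, made by the authors with RMA in the oligo package per the submitters' processing notes, which name no version. Of 39993 probe sets 23521 name exactly 1 gene, 1814 several and 14658 none here. Differences were tested on log2 values over all 22180 genes by two-sided limma tests (version 3.58.1, R 4.3.3, lmFit then eBayes) at a Benjamini-Hochberg adjusted p of 0.05, for type without covariates, for sex with type, and for their interaction. An SE is limma's moderated standard error. The fit was tested on simulated data with independent noise in each line. That setting has no missing direction and no related lines, so it does not bear on those limits. Dim probe sets were kept, scanner output was not used here, and precision is limited by having 8 arrays.

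The members and lists were chosen with earlier results of these data known, and no test of a score over the members was run. Values in every line are given for members called in any test, with an unadjusted p under 0.05 for type or a range of at least 2 log2 units, and for Nfe2l2 and Keap1; Sod2 and Hmox1 were added after their values were seen. Pathway genes are named for type if called, and otherwise as the 8 with the smallest p. Alternatives were other eBayes settings, normalizations and probe set rules, a level filter, covariates, a random block, averaging, one sex and leaving out each line. The random block, averaging and the fits within one sex were run for type only. Python 3.11.15 with pandas and matplotlib served for tables and plots.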

Additional observations from a re-analysis of the deposited data

Results flagged for a closer look

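Within groups of 4 lines, 5 of 72 sets of values held a line set apart from the other 3 by a gap past Dixon's critical value, or 6.94%, where chance gives about 1 in 20. Gclc in ICC2.9 was 9.62, with the other ICC lines from 9.24 to 9.29. Sod2 in ICC10 was 10.10, with the others from 9.91 to 9.94. Gpx4 in ICC2.7 was 8.0, with the others from 8.16 to 8.17, and Gpx4 in HCC4 was 7.92, with the other HCC lines from 8.17 to 8.21. Fth1 in ICC2.7 was 12.82, with the others from 13.13 to 13.19.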

How the results depend on the processing

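The count of 0 members called for type was found under 19 of 20 alternatives and became 1 in female-labelled lines alone. Several alternatives called almost no gene, with 2 of 22180 without ICC9, 6 with the random block and 0 with averaging. The count of 0 thus shows little about stability. The mean difference of 0.0956 moved by less than 0.0831, the smaller SD of the line means, in the alternatives checked. That limit is close to the difference itself, so this shows little about stability. The difference was 0.05 without ICC2.9 and 0.06 without HCC4. It was 0.046 in female-labelled and 0.145 in male-labelled lines alone. The 0 pathway genes called for type became 5 with sex as a covariate (1.93% of all genes) and 1 with sex and the missing direction (0.537%). They became 9 in female- and 1 in male-labelled lines (3.14% and 0.902%), and 0 to 2 without single lines (0.00902% to 0.491%). The 1 member called for sex became 2 above the median level (7.74% of genes there) and 0 with the missing direction (1.26% of all genes). It became 0 after median centring (2.86%), and 0 to 3 without single lines (0.658% to 4.13%). The 7 pathway genes called for sex became 4 with the missing direction (1.26% of all genes) and 2 to 10 without single lines (0.658% to 4.13%). The 0 members called for the interaction became 1 with the missing direction (1.15% of all genes) and 0 to 1 without single lines (0% to 1.07%). The 15 at an unadjusted p became 5 to 15, against 7.87% to 31.1% of the genes tested. In female-labelled lines alone the type differences of Nqo1 (-0.13), Gpx3 (-0.555) and Gstm2 (-0.09) reversed; none of the 3 was called. The cause of these changes was not tested. The alternatives for the sex count of pathway genes and the unadjusted interaction count were added after seeing the data. No paired analysis was possible because the labels give no replicate numbers shared by the groups, and labelled sex, held by both types, was used as a covariate.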
